A study of Mus musculus with 8 samples.

Results

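The intermediate filament and nuclear lamin genes were described across 8 libraries of purified cardiomyocytes from C57BL6/J mice aged 2 days (postnatal day 2). A male and a female heart came from each of 4 litters, so the libraries form 4 male and 4 female samples that can also be paired by litter. The labels name no treatment or genetic change, all animals share strain and age, and how the cardiomyocytes were purified is not given in the sources used here. The genes were taken by symbol and are Des, Vim, Nes, Synm, Krt8, Krt18, Lmna, Lmnb1, Lmnb2 and Plec. They are 10 of 48440 entries in the deposited count table, and all 10 passed the filter on low counts that left 13771 genes for testing.

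Intermediate filaments are rope-like polymers of coiled-coil proteins. In heart muscle, desmin filaments wrap the Z-discs and tie them to each other, to the intercalated discs, to mitochondria and to the nucleus. Vimentin and nestin filaments are typical of fibroblasts, endothelial cells and progenitor cells, and keratins 8 and 18, which polymerise only as a pair, are typical of simple epithelia such as the mesothelium on the surface of the heart. Lamins are the intermediate filaments of the nucleus. Lamin A and lamin C come from Lmna and increase with tissue stiffness and differentiation, whereas the B-type lamins from Lmnb1 and Lmnb2 are held at the inner nuclear membrane by a lipid anchor and are made in most cells. Plectin is a giant linker that joins filaments to desmosomes, integrins, Z-discs and the nuclear envelope.

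The genes lie on several chromosomes, with positions from GENCODE M21 on GRCm38, the assembly that the mm10 build of the submitters' processing notes names. Des spans chr1:75360329-75368579 on the plus strand, Vim chr2:13573927-13582826 and Nes chr3:87971078-87980451, also on the plus strand. Lmna at chr3:88480147-88509956, Synm at chr7:67730160-67759742, Lmnb2 at chr10:80901203-80918245 and Plec at chr15:76170974-76232574 lie on the minus strand. Krt8 at chr15:101996698-102004482 on the minus strand and Krt18 at chr15:102028180-102032027 on the plus strand are neighbours. All 10 are protein-coding.

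Sequence before the start site is shown for Des, the most abundant of the genes, and for Nes and Lmnb2, whose levels had the widest range between litters. Sequences are RefSeq's on GRCm38.p6, 5′ to 3′ on the strand of the gene, and they end before any exon annotated in GENCODE M21. Capitals mark a GC box or its reverse complement.
Des, chr1:75360042-75360291, plus strand: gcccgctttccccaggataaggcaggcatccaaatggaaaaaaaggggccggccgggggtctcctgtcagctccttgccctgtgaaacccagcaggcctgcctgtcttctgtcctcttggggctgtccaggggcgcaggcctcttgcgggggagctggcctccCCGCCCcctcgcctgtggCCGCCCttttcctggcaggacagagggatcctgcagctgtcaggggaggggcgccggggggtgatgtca
Nes, chr3:87970843-87971077, plus strand: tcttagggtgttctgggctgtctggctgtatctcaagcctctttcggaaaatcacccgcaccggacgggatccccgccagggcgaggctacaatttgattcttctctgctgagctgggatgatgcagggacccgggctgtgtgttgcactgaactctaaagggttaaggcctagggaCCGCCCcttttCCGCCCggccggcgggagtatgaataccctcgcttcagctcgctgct
Lmnb2, chr10:80918246-80918495, minus strand: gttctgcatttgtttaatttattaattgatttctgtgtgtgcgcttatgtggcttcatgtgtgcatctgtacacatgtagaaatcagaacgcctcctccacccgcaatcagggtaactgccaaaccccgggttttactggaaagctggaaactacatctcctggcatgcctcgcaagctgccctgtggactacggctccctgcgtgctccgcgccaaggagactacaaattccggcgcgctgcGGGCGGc
The windows before the start were searched on both strands for the GC box GGGCGG, the CCAAT box CCAAT, the TATA box TATAAA, the cell cycle element TTTGAA and the E2F site GGCGGGAA. In the windows shown, Des and Nes each held 2 GC boxes and Lmnb2 held 1. None of the 3 held any of the other 4 motifs, so no match overlapped another motif. The window before another annotated start of Lmnb2, chr10:80906413-80906662, held 0 matches and had a GC content of 58%. Among 32851 annotated windows of 250 bases, 32.7% held a GC box, 33.8% a CCAAT box, 12.4% a TATA box, 16% the cell cycle element and 1.86% the E2F site. GC content was 67.2% for Des, 58.8% for Nes and 52.8% for Lmnb2 over the 250 bases. A match is a description of letters and does not show that a factor binds.

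Libraries held 14226342 to 24910243 counts. The sum of 10 cardiomyocyte markers, which include Myh6, Tnnt2 and Actn2, ran from 66383 to 83982 CPM (the usual scaling of counts to library size, here with TMM factors), so the labelled cell type is present in every library. Other cells left traces. Summed markers came to 18.6 to 167 CPM for the endothelial list, 41.1 to 302 CPM for the fibroblast list and 14.9 to 23.9 CPM for the epicardial and mesothelial list. The last of these sums was mostly Tbx18, with 9.89 to 21.4 CPM. Of the 10 epicardial and mesothelial markers, 7 had enough counts to be tested, and Upk1b, Bnc1 and Muc16 had at most 10 counts in any library. Of the Schwann and neural list 8 of 10 genes, among them Sox10, and of the macrophage list 5 of 8 genes, among them Adgre1 and Csf1r, were too low to test. Mitochondrial transcripts took 13.4% to 15.2% of counts in 7 libraries and 18.5% in the male of litter 4. Litter 3 stands apart from the other litters over many genes, so the litter calls of the members are also given without it.

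Desmin was by far the main filament transcript. Levels between genes were compared per length, as TPM (counts scaled by length and then by library) over the longest annotated transcript. Des had 983 ± 53.3 TPM (SD, n = 8) and stood between rank 88 and rank 109 among 46368 entries in every library. It made up 79.6% ± 2.44 of the TPM of the 10 genes. Vim followed with 86.3 ± 18.1 TPM and Plec with 56.0 ± 7.73 TPM. The lamins came next, with 48.2 ± 6.59 TPM for Lmna, 38.0 ± 10.1 TPM for Lmnb1 and 9.51 ± 3.04 TPM for Lmnb2. Krt18 had 9.48 ± 1.11 TPM, Nes 2.13 ± 1.42 TPM, Krt8 1.52 ± 0.348 TPM and Synm, the large desmin partner synemin, 0.50 ± 0.158 TPM.

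By the longest transcript, the order of these levels was firm at its ends and loose in the middle. Des lay above Vim, Vim above Plec, Lmnb1 above Lmnb2, Krt18 above Nes and Krt8 above Synm in 8 of 8 libraries. Plec lay above Lmna in 7 of 8 and Lmna above Lmnb1 in 6 of 8. Lmnb2 was above Krt18 in 4 of 8 and Nes above Krt8 in 5 of 8, so these neighbours do not differ beyond their spread. With the length of merged exons in place of the longest transcript, Lmnb1 (45.5 TPM) came before Lmna (40.5 TPM) and Krt18 (11.8 TPM) before Lmnb2 (9.76 TPM), and the other 6 ranks were as before.

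**Figure D1:**
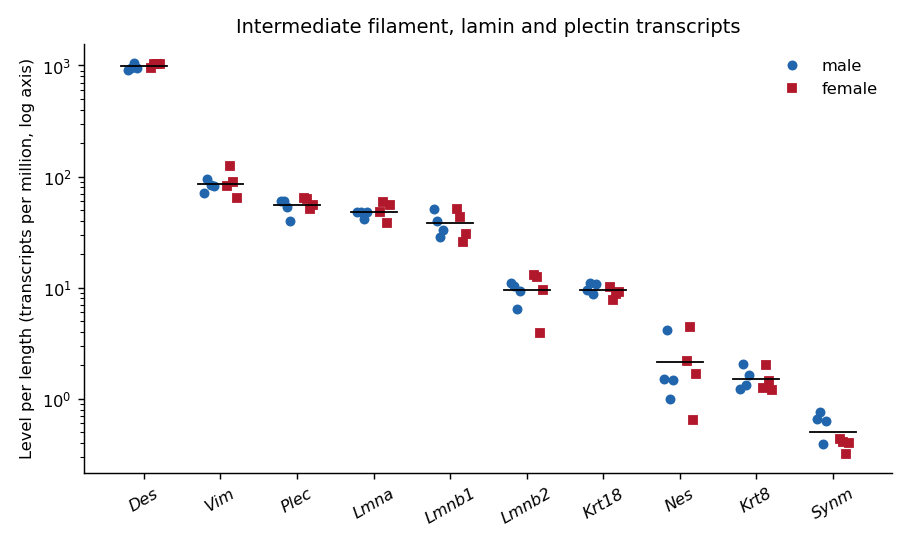
Level of each gene per transcript length, in TPM on a log axis, for 4 male libraries (circles) and 4 female libraries (squares), with a bar at the mean of 8. Des lies near 983 TPM, Vim to Lmnb1 lie between 86.3 and 38.0 TPM, and Synm is lowest at 0.50 TPM.

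The keratin pair was measured at low and unequal levels. Krt18 had 81 to 167 counts per library and Krt8 had 18 to 43. The ratio of Krt8 to Krt18 per length was 0.130 and 0.123 in the male and the female of litter 1, 0.189 and 0.261 in litter 2, 0.151 and 0.163 in litter 3, and 0.151 and 0.131 in litter 4. Krt18 thus exceeded Krt8 in every library. Of the 100-base windows of Krt8, 17.1% also occur in Gm36026 on the opposite strand or in the pseudogene Krt8-ps, which had 1 count in all, so part of the Krt8 count is uncertain. Mesothelial cells also make both keratins, and the mesothelial marker Upk3b had 0.270 to 1.57 CPM. The part of such cells in the keratin levels was not tested.

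The series was laid out around male and female hearts, and the sexes were set against each other with edgeR's quasi-likelihood model over all 13771 genes. None of the 10 genes had an adjusted p-value under 0.05, where 0.0436% of all tested genes did. At an unadjusted p-value under 0.05 there was 1 of 10, Synm, against 2.22% of all genes, and DESeq2 also called 0 of 10. With litter as a block, 0 of 10 passed, against 0.211% of all genes, and Synm alone was under an unadjusted 0.05, against 11.6%.

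Synm was the member that differed most by sex. Its male libraries had 2.29, 2.62, 1.34 and 2.51 CPM in litters 1 to 4, and its female libraries 1.52, 1.39, 1.10 and 1.51 CPM. The male was higher in each of the 4 litters, as it was for 10.9% of tested genes, but the male of litter 3 lay below 3 of the 4 females, so the groups overlap. The log2 difference, male minus female, was 0.65 (SE 0.26, unadjusted p = 0.0289, adjusted p = 1.00 in edgeR), and with the litter block 0.66 (SE 0.20, unadjusted p = 0.00746, adjusted p = 0.295). It stayed between 0.54 and 0.83 when any library or litter was left out. The value rests on 16 to 63 counts per library, and 3.6% of its windows occur in the antisense entry Gm45102, which had 3 to 12 counts.

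Des was lower in the male of each litter, as were 9.36% of tested genes, but by little. Its males had 1241, 1264, 1372 and 1450 CPM in litters 1 to 4 and its females 1284, 1348, 1382 and 1496 CPM. The difference between the 2 hearts of a litter was smaller than the spread between litters, and the log2 difference was -0.05 (SE 0.09). The antisense entry Gm15179, which shares 4.2% of the windows of Des, had 4 to 24 counts, against 20081 to 35638 for Des.

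For the remaining 8 genes the log2 differences by sex ran from -0.12 for Nes to 0.17 for Krt18. Standard errors ran from 0.11 for Plec to 0.54 for Nes, whose standard error was 0.16 with the litter block (log2 difference -0.11). Male and female means (± SD, n = 4 each) were 111 ± 14.2 and 118 ± 28.8 CPM for Vim, 377 ± 48.3 and 408 ± 40.7 CPM for Plec, 83.8 ± 10.2 and 89.7 ± 17.4 CPM for Lmna, and 49.7 ± 12.7 and 48.6 ± 14.7 CPM for Lmnb1. Ratios of 2 genes within a library do not depend on how libraries are scaled. The log2 difference, male minus female, was -0.02 for Vim/Des, -0.07 for Krt8/Krt18, -0.13 for Lmna/Lmnb1 and 0.01 for Lmnb2/Lmnb1, with exact permutation p-values, two-sided, of 0.971, 0.800, 0.600 and 0.971 (each 0.971 after adjustment over the 4 ratios, where the smallest possible is 0.0286). Lmna/Lmnb1 was lower in the male of each of the 4 litters, though by almost nothing in litter 1, and a permutation within litters gave an exact p of 0.125, the smallest that 4 pairs allow. The Vim/Des, Krt8/Krt18 and Lmnb2/Lmnb1 differences changed sign when single litters were left out.

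Litters differed far more. In edgeR's test of the 3 litter coefficients, 4 of the 10 genes passed the threshold, against 32.1% of all tested genes, a share near this background. They were Nes and all 3 lamin genes. DESeq2 called 6 of the 10, with Des and Plec besides these 4, and 3252 genes in all where edgeR called 4427. With a range of at least 1 on the log2 scale as well, edgeR called 2, Nes and Lmnb2, against 7.62% of genes. Against the mean of the other 3 litters, Nes and the 3 lamin genes were the members that passed in litter 3, each lower. There, 14.8% of tested genes were lower and 28.3% passed in either direction. In litter 1 the B-type lamins Lmnb1 and Lmnb2 passed as higher, against 7.86% of genes (13.3% in either direction). In litter 2 Nes passed as higher, against 3.3% (4.18%), and in litter 4 Lmna did, against 4.71% (10.5%). The 4 comparisons share libraries and are not independent. The range between the highest and the lowest litter was a median of 0.60 on the log2 scale over the 10 genes and 0.37 over all tested genes.

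**Figure D2:**
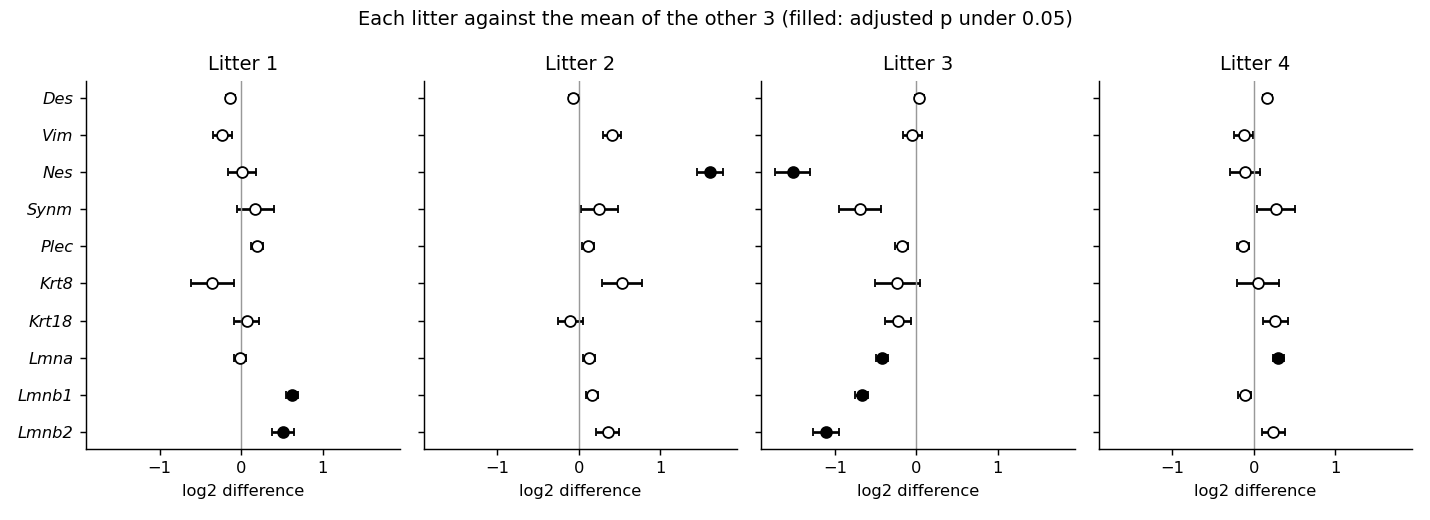
Log2 difference of each litter from the mean of the other 3, with bars of 1 standard error, for the 10 genes. Filled points passed an adjusted p-value of 0.05: Lmnb1 and Lmnb2 in litter 1, Nes in litter 2, Nes and the 3 lamin genes in litter 3, and Lmna in litter 4.

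Lmnb1, at chr18:56707813-56753424 on the plus strand, was highest in litter 1 and lowest in litter 3. The male and female libraries had 65.9 and 66.1 CPM in litter 1, 49.7 and 54.1 CPM in litter 2, 35.01 and 32.2 CPM in litter 3, and 48.1 and 42.0 CPM in litter 4. Litter 1 lay above the other 6 libraries, as for 8.89% of tested genes, and litter 3 below them, as for 16.4%. Lmnb1 was higher in litter 1 by 0.62 (SE 0.07, edgeR adjusted p = 0.000217) and lower in litter 3, with a log2 difference of -0.67 (SE 0.08, adjusted p = 0.000102). In the test over all litters its adjusted p-value was 0.000135, and it passed also without litter 3 (0.00541), where its range fell from 0.97 to 0.55.

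Lmnb2 was lowest in litter 3 as well. Its male and female libraries had 17.3 and 20.9 CPM in litter 1, 16.1 and 19.2 CPM in litter 2, 9.85 and 6.12 CPM in litter 3, and 16.9 and 16.2 CPM in litter 4. Both libraries of litter 3 lay below the other 6, and litter 2 overlapped litters 1 and 4, which did not overlap each other. The log2 difference was -1.11 in litter 3 (SE 0.16, edgeR adjusted p = 0.000455) and 0.51 in litter 1 (SE 0.14, adjusted p = 0.0293). The difference between litters (adjusted p = 0.00234, range 1.22) was no longer past the threshold without litter 3 (adjusted p = 0.422, range 0.20), and in that fit Lmnb2 did not pass in litter 1 either. Lmnb2 in the female of litter 3 rests on 89 counts, and the difference in litter 3 was -0.77 without that library and -1.61 without the male of litter 3.

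Lmna moved less and in a different order. It had 85.3 and 85.6 CPM in the male and the female of litter 1, 83.4 and 101 CPM in litter 2, 70.8 and 66.9 CPM in litter 3, and 95.7 and 105 CPM in litter 4. Litter 3 lay below the other 6 libraries, with a log2 difference of -0.42 (SE 0.08, edgeR adjusted p = 0.00181). Litter 4 was higher by 0.30 (SE 0.07, adjusted p = 0.0229), a call that was lost when libraries were scaled by their totals alone and when litter 3 was left out. The call in litter 3 was lost without the female of litter 3 (adjusted p = 0.0548), and the test over litters (adjusted p = 0.00489) was not passed without litter 3 (0.163).

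The ratio of the 2 lamin types was not tested between litters. Lmna over Lmnb1 per length was 0.933 and 0.933 in the male and the female of litter 1, 1.21 and 1.34 in litter 2, 1.46 and 1.496 in litter 3, and 1.43 and 1.81 in litter 4. The 2 libraries of litter 1 lay below the other 6, and those of litters 3 and 4 overlapped. The ratio of Lmnb2 to Lmnb1 ranged from 0.153 in the female of litter 3 to 0.312 in the female of litter 4.

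Markers of cell division differed between litters as well. The sum of 12 such markers, among them Mki67, Top2a and Cdk1, was 536 and 448 CPM in the male and the female of litter 1, 309 and 308 CPM in litter 2, 84.9 and 124 CPM in litter 3, and 230 and 245 CPM in litter 4, and 12 of 12 were lower in litter 3, against 14.8% of all genes. Litter 1 was highest and litter 3 lowest for both the marker sum and Lmnb1, but the spread was wider for the markers, which ran from 0.297 to 1.88 times their mean, against 0.655 to 1.35 times for Lmnb1. Lmnb2 had litter means of 19.1, 17.6, 7.99 and 16.6 CPM, in an order of litters that the marker sum shared. Within litter 3 Lmnb1 and Lmnb2 were higher in the male and the marker sum in the female. Among the other marker lists, 8 of 10 fibroblast genes, 7 of 10 endothelial genes and 5 of 10 mural genes were lower in litter 3, with median log2 differences of -1.83, -1.45 and -0.82. Of 7 epicardial and mesothelial genes 3 were lower and Tbx18 was higher (median -0.51). Of 6 erythroid genes 2 were higher (median 0.94), with sums of 532 CPM in the male and 185 CPM in the female of litter 3 and 98.7 to 247 CPM in the other litters, so the female lay within their range. Of 3 macrophage genes 0 passed (median 0.10). Of the 10 cardiomyocyte markers 4 were lower and 1 higher there, with -0.61 for Myh6, the adult myosin heavy chain, and 2.74 for Myh7, the fetal one. The part of these cells and of cell division in the lamin levels was not tested. In bulk samples, fewer cells of a type and less RNA per cell cannot be told apart.

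**Figure D3:**
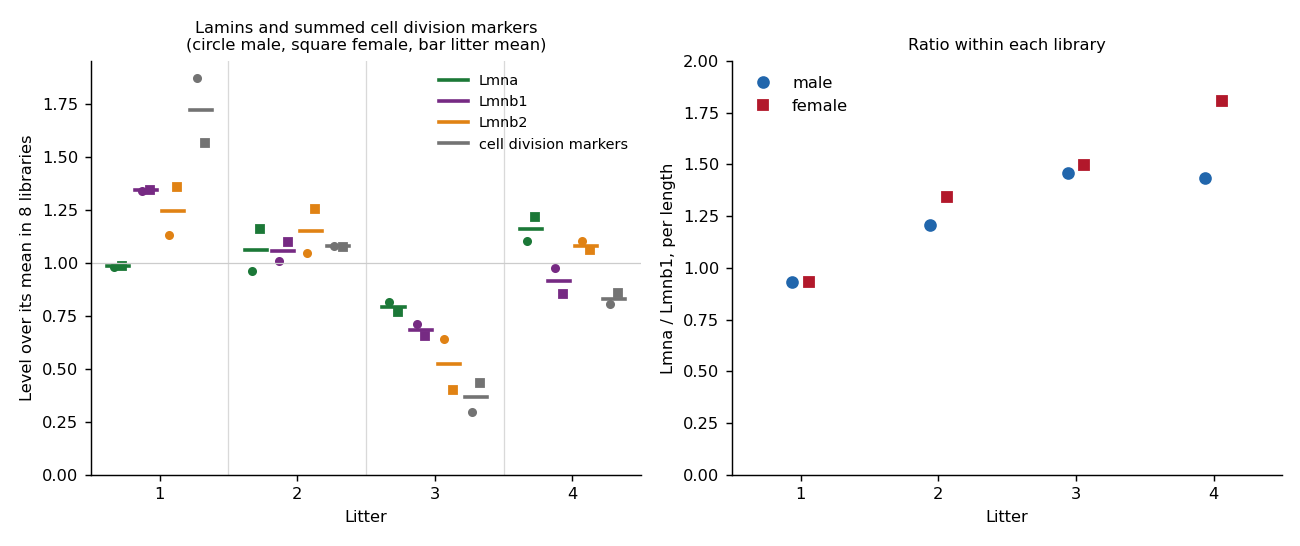
Left, the level of Lmna, Lmnb1, Lmnb2 and the summed cell division markers over their mean in 8 libraries, by litter, with male libraries as circles, female libraries as squares and a bar at the litter mean. Right, the ratio of Lmna to Lmnb1 per length, which lies at 0.933 in both libraries of litter 1 and between 1.21 and 1.81 in the other 6.

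Nes had the widest range of the 10 genes. Nestin is a large filament protein of dividing progenitor, endothelial and Schwann cells. Its male and female libraries had 4.14 and 6.01 CPM in litter 1, 11.3 and 11.9 CPM in litter 2, 2.65 and 1.72 CPM in litter 3, and 4.58 and 4.91 CPM in litter 4. Litter 2 lay above the other 6 libraries, as for 4.79% of tested genes, and litter 3 below them. The log2 difference was 1.61 in litter 2 (SE 0.16, edgeR adjusted p = 0.000261) and -1.52 in litter 3 (SE 0.21, adjusted p = 0.000329). The litter test (adjusted p = 0.000135, range 2.35) was passed as well without litter 2 (0.0122, range 1.15) and without litter 3 (0.000802, range 1.29).

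Markers of other cell types also differed between litters. The endothelial list summed to 92.8 and 167 CPM in the male and the female of litter 2, 20.0 and 21.0 CPM in litter 3, 34.7 and 27.2 CPM in litter 4, and 18.6 and 69.8 CPM in litter 1, and 10 of its 10 genes passed the litter test, against 32.1% of all genes. The fibroblast list summed to 187 and 141 CPM in litter 1, 302 and 207 CPM in litter 2, 60.7 and 41.1 CPM in litter 3, and 251 and 126 CPM in litter 4, with 9 of 10 genes past the litter test. Both sums were low in litter 3, as Nes was. The fibroblast sum was higher in the male of litter 4 than in the female of litter 2, where Nes was 4.58 and 11.9 CPM. Litter means were highest in litter 2 and lowest in litter 3, as for Nes, for 9 of 10 endothelial, 6 of 10 fibroblast and 3 of 10 mural markers. They were so for 1 of 10 cardiomyocyte and 1 of 7 epicardial and mesothelial markers. The same held for 0 of 12 cell division, 0 of 6 erythroid, 0 of 3 macrophage and 0 of 2 Schwann and neural markers. This count was made after the values were seen, and the share over all tested genes was not counted. Within litters 1 and 2 the endothelial sum differed between the 2 hearts by more than Nes did, with 1.65 and 2.96 times its mean in the male and the female of litter 2, where Nes stood at 1.92 and 2.01 times its mean. The mural sum, 917 to 1554 CPM, was mostly Acta2 and Abcc9. In litter 3, Rgs5, Pdgfrb, Notch3, Myh11 and Acta2 were lower, with log2 differences of -1.31 to -2.30, and the other 5 did not pass, with -0.34 to 0.14. Of the 10 Schwann and neural markers 8 were too low to test, with at most 6 counts in any library. The part of these cells in the Nes level was not tested.

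**Figure D4:**
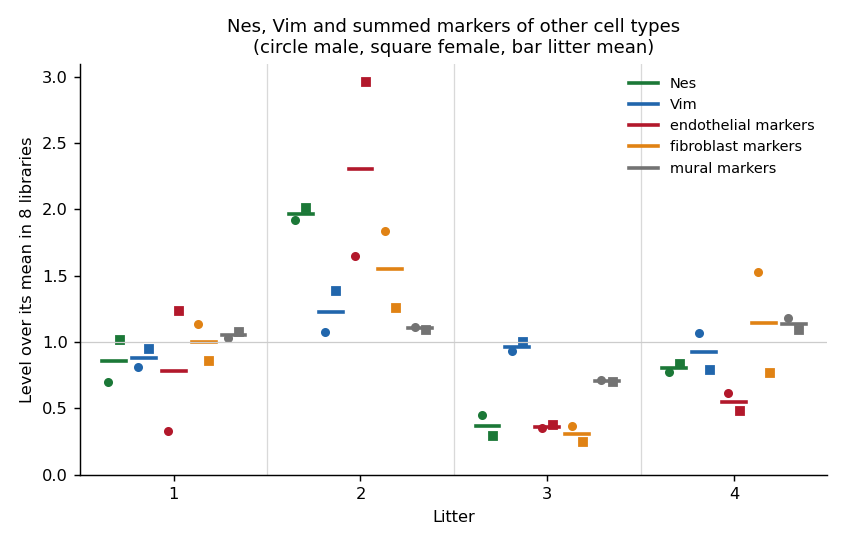
Level of Nes, Vim and the summed endothelial, fibroblast and mural markers over their mean in 8 libraries, by litter, with male libraries as circles, female libraries as squares and a bar at the litter mean. Nes stands at 1.92 and 2.01 times its mean in litter 2 and at 0.449 and 0.292 times in litter 3, while Vim stays between 0.789 and 1.38 times. The mural sum is mostly Acta2 and Abcc9.

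Vim, the vimentin gene, varied less than Nes. Its male and female libraries had 92.8 and 109 CPM in litter 1, 123 and 158 CPM in litter 2, 106 and 114 CPM in litter 3, and 122 and 90.3 CPM in litter 4. Litter 2 held the 2 highest libraries, with a log2 difference of 0.41 (SE 0.11, edgeR adjusted p = 0.0683). Litter 3 was near the others (-0.05, SE 0.12, adjusted p = 0.771), and the endothelial and fibroblast sums were low there. The part of these cells in the Vim level was not tested. The litter test was not passed (adjusted p = 0.0629, range 0.48). It was passed when the male of litter 2, either library of litter 4 or all of litter 4 was left out. It was also passed with library size alone and with no filter on low counts. It was not passed in a robust edgeR fit (adjusted p = 0.272), in DESeq2 (adjusted p = 0.402) or without litter 2 (edgeR adjusted p = 0.662). The range fell to 0.27 without the female of litter 2 and to 0.13 without litter 2. Vim per length was 0.0625 to 0.122 of Des.

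Desmin and plectin, which link the contractile apparatus, had the smallest litter ranges of the 10 genes. Des ranged over 0.22 between litters on the log2 scale (edgeR adjusted p = 0.0691), at percentile 22.1 of the ranges of tested genes, and both libraries of litter 4 lay above the other 6, as for 8.23% of genes. Plec had 421 and 444 CPM in the male and the female of litter 1, 409 and 421 CPM in litter 2, 361 and 349 CPM in litter 3, and 316 and 417 CPM in litter 4, with a range of 0.28 (adjusted p = 0.0736). Its 2 hearts of litter 4 lay farther apart than those of any other litter. Both genes passed the litter test in DESeq2 and when no filter on low counts was used. Plec also passed it without the male of litter 4 (adjusted p = 0.0228), without the female of litter 4 (0.00546) and without both (0.0160), and it was lower in litter 3 without the male of litter 4 (-0.24, adjusted p = 0.00739) and with no filter (-0.18, adjusted p = 0.0342).

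Synm, Krt8 and Krt18 did not pass the litter test. Both Synm libraries of litter 3 lay below the other 6, with a log2 difference of -0.70 (SE 0.26, edgeR adjusted p = 0.0646). Krt8 had 1.08 and 1.11 CPM in litter 1, 1.79 and 1.71 CPM in litter 2, 1.13 and 1.24 CPM in litter 3, and 1.62 and 1.13 CPM in litter 4, and litter 2 lay above the other 6 libraries and litter 1 below them, as for 8.67% of tested genes (adjusted p = 0.278 over litters). Krt18 ran from 4.81 CPM in the female of litter 2 to 7.87 CPM in the male of litter 4 (adjusted p = 0.396), and its litter 3, at 5.47 and 5.57 CPM, lay below litters 1 and 4 but within litter 2. With 18 to 43 counts for Krt8 and 16 to 63 for Synm, counting error limits what could be detected.

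**Figure D5:**
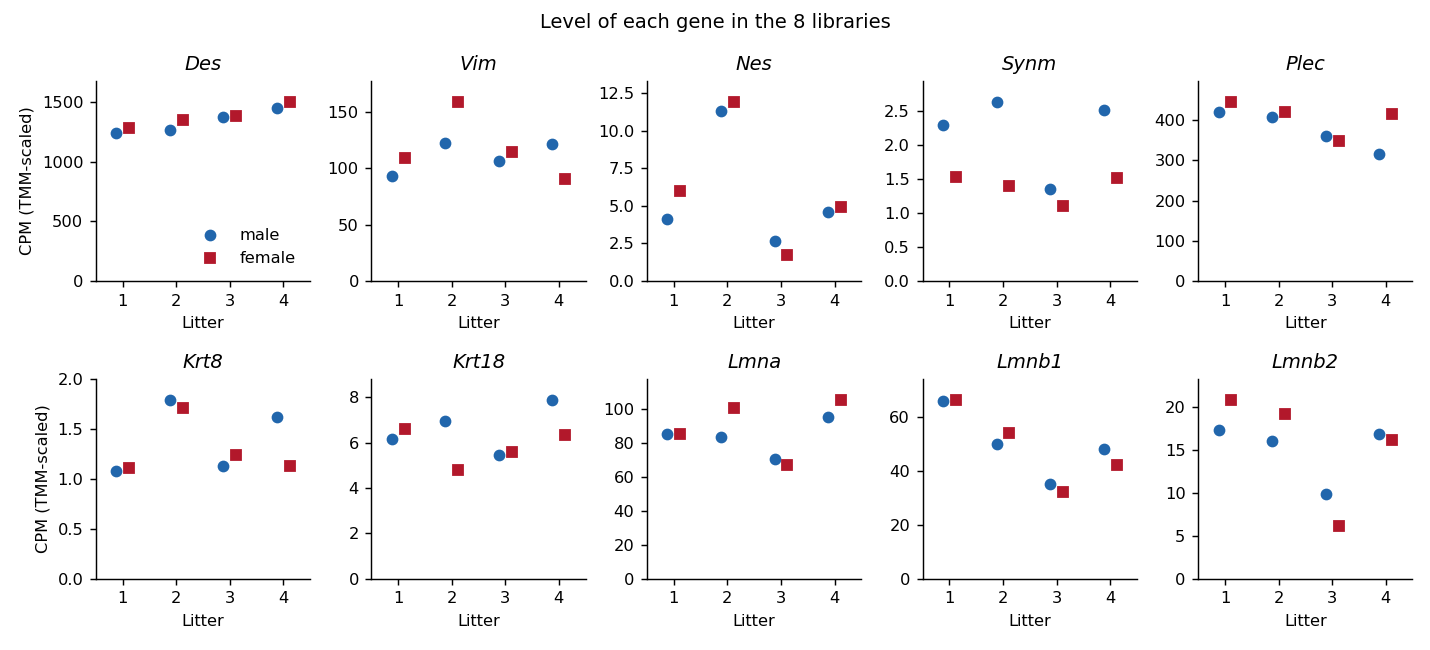
CPM of each of the 10 genes in the male (circle) and the female (square) of litters 1 to 4, each panel starting at 0. Nes is highest in litter 2, the 3 lamin genes are lowest in litter 3, and Synm is higher in the male of each litter.

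Among other intermediate filament genes, few were expressed. Of 22 listed genes 14 were too low to test, with at most 10 counts in any library, including the neurofilament genes Nefl, Nefm and Nefh and the glial gene Gfap, and Krt4, Krt5 and Krt15 had 0 counts in every library. Of the 8 tested, 2 passed the litter test in edgeR, against 32.1% of all genes, and 1 in DESeq2, which called 3252 genes in all. Bfsp2, known for the beaded filaments of the lens, had 0.689, 0.734, 2.20 and 0.671 CPM in litters 1 to 4 (SD 0.161, 0.0205, 0.591 and 0.00102, n = 2), and edgeR's adjusted p-value was 0.00677. Krt80, a keratin, had 3.02, 2.38, 1.94 and 1.39 CPM (adjusted p = 0.0295). The median range between litters was 0.47 for these 8 genes.

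Cytolinkers, desmosome genes and filament chaperones ranged from 0.440 to 0.774 CPM by litter for Evpl, which encodes envoplakin, to 1138 to 1435 CPM for Dsp, which encodes desmoplakin, and Ppl was too low to test. Of 16 tested 9 passed the litter test in edgeR, against 32.1% of all genes, and 9 in DESeq2, which called 3252 genes in all where edgeR called 4427. In litter 3 there were 5 higher and 1 lower, against 13.6% and 14.8% of all genes. Klhl24, which encodes a ubiquitin ligase adaptor known to act on keratins and desmin, stood at 335 CPM in litter 3 against 222 to 234 CPM elsewhere (edgeR adjusted p = 0.00105). Dsc2, a desmosomal cadherin, had 80.0, 70.2, 64.9 and 53.8 CPM in litters 1 to 4 (adjusted p = 0.0012). Hspb1, a small heat shock protein, had 210 CPM in litter 3 against 157 to 186 CPM (adjusted p = 0.00493). Litter ranges of this list had a median of 0.36, close to that of all genes.

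Genes for the partners of the lamins at the nuclear envelope had a median litter range of 0.28, against 0.37 for all genes. Of 19 tested 8 passed the litter test in edgeR and 4 in DESeq2, against 4427 and 3252 of all genes, and in litter 3 there were 2 higher and 2 lower, against 13.6% and 14.8%. Tmem43, an inner nuclear membrane protein, stood at 9.95 CPM in litter 3 against 12.6 to 13.8 CPM elsewhere (edgeR adjusted p = 0.0423). Syne2, whose product nesprin-2 links the envelope to the cytoskeleton, stood at 41.4 CPM in litter 4 against 53.3 to 56.8 CPM elsewhere (adjusted p = 0.0132). Mlip, which encodes a muscle protein that binds lamin A, went the other way from Lmna in litter 3, with 197 CPM against 147 to 185 CPM (adjusted p = 0.00306). Of the 5 lamin processing genes, which encode the farnesyltransferase subunits and the enzymes that trim and methylate the farnesylated tail, 0 passed the litter test in edgeR or DESeq2. At an unadjusted p-value under 0.05 there was 1 of 5, against 6301 of 13771 genes. By sex, 0 of the 48 tested genes of these 4 lists passed in edgeR or DESeq2, with 1 at an unadjusted p-value under 0.05.

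The genes most like the 3 widest-ranging members were found as the smallest root mean square difference of mean-centred log2 CPM over the 8 libraries. For Nes, whose own spread was 0.87, these were Cdh11 at 0.20, Cygb at 0.22 and Arhgap28 at 0.22. Cdh11, a cadherin of mesenchymal cells, had 6.35, 14.04, 3.06 and 7.23 CPM in litters 1 to 4. For Lmnb2, with a spread of 0.55, they were Ddah1 at 0.15, Tmem266 at 0.17 and Has3 at 0.18. For Lmnb1, with a spread of 0.36, they were Alg8 at 0.05, Wdr76 at 0.07 and Nup205 at 0.08. Nup205, a scaffold protein of the nuclear pore, had 55.5, 45.5, 31.2 and 41.5 CPM. All these genes were picked for their likeness to a member, so a shared order of litters is no separate finding. Cygb and Arhgap28 were low, with means of 0.844 and 0.939 CPM, and Tmem266 did not pass the litter test (edgeR adjusted p = 0.0696).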

How the data were processed

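RNA of purified cardiomyocytes was sequenced as stranded libraries with single-end reads, per the labels' protocols, which name a total RNA kit while the labels give the molecule as polyA RNA. The authors deposited whole-number counts, not normalized, in 1 table with a row per gene symbol. The submitters' processing notes name STAR 2.7.3a and the build mm10. The counting program, the annotation and the strand setting are not given in the sources used here, so reads of antisense partners may not be separated.

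The members and lists were chosen with earlier results of these data known. Counts were analysed in R 4.3.3 with edgeR 4.0.16 (filterByExpr on sex, TMM, quasi-likelihood F tests, Benjamini-Hochberg over 13771 genes, threshold 0.05), with DESeq2 1.42.0 as an alternative. Sex was fitted without a litter term. Litter was tested with sex in the model, with 3 residual degrees of freedom. Each litter was also set against the mean of the other 3. Log2 CPM used a prior count of 2. TPM used the longest GENCODE M21 transcript, which a symbol match gave for 98.6% of counts. Standard errors are the log2 difference divided by the square root of F. Scripts were tested on simulated counts.

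Named genes were the 10 members, up to 3 per list with the widest range among those past the litter threshold, any list gene past the sex threshold, and the 3 genes most like each of the 3 widest-ranging members. Promoter windows were read for 8 members. Plec had no matching window, and windows on chromosome 18, where Lmnb1 lies, were left out. The labels give the litter of each heart, which pairs male and female, and their deviations from the sex means correlated across genes at 0.506, 0.503, 0.696 and 0.367 in litters 1 to 4. Libraries of 1 sex differed beyond sampling noise (chi-square per degree of freedom at least 10.4). Alternatives were library size alone, filters, no mitochondrial genes, the litter block, left-out libraries and litters, and a robust fit chosen after the data were seen.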

Additional observations from a re-analysis of the deposited data

How the results depend on the processing

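Nes, Lmna, Lmnb1 and Lmnb2 passed the litter test under library size alone, both other filters, mitochondrial genes left out, a robust fit and DESeq2, and without any single library. Without litter 3, Nes and Lmnb1 passed. The number of members past the litter test was 7 with no filter, adding Des, Vim and Plec (5723 genes in all against 4427), and 2 to 6 with a library or litter left out, where the count over all genes ran from 1898 to 4586. In litter 3, 3 to 5 members passed with a library left out, and 1704 to 3791 genes. With library size alone, 2 members passed in litter 2 (Vim besides Nes) and 0 in litter 4, where the split of calls was 262 higher and 1501 lower against 648 and 799. In litter 3 that split was 2419 and 1698 against 1871 and 2032. Without litter 3, the calls of litters 1, 2 and 4 were 977, 271 and 1984 genes, with 2 members (Nes and Lmnb1, Lmnb2 being lost), 1 member (Nes) and 3 members (Des, Nes and Lmnb1, Lmna being lost).

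With litter as a replicate block, 29 genes differed by sex against 6, of which 0 were members in both fits. Sex counts ran from 5 to 8 with a library or litter left out, with 0 members in each. Sex differences that changed sign were Nes (-0.72 to 0.40), Lmnb1 (-0.14 to 0.21), Lmnb2 (-0.33 to 0.10), Krt8 (-0.044 to 0.26) and Vim (-0.25 to 0.075), and Vim in litter 3 did so as well (-0.15 to 0.067). So did the ratios Vim/Des (-0.18 to 0.067), Krt8/Krt18 (-0.17 to 0.056) and Lmnb2/Lmnb1 (-0.18 to 0.10), and Lmna/Lmnb1 stayed between -0.17 and -0.06. Merged exons moved Vim to 66.3, Lmna to 40.5, Krt18 to 11.8 and Krt8 to 1.89 TPM. The cause of these changes was not tested, except that fits without a litter hold fewer samples. Depth limits Krt8, Synm and, in litter 3, Nes and Lmnb2, which had as few as 18, 16, 25 and 89 counts.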

Other observations

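In 28 sets of 4 libraries of 1 sex (10 genes and 4 ratios), no library lay far outside the other 3 by Dixon's criterion, which chance alone meets in about 1 set in 20.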
